A study of Mus musculus with 8 samples.

Results

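The MHC class II genes described here are H2-Aa, H2-Ab1, H2-Eb1, H2-DMa, H2-DMb1, Cd74 and Ciita, 7 of the 22056 genes of the deposited matrices, taken by symbol. They were followed in 8 single-cell libraries of allografts of N2N1G, a mouse small cell lung cancer line, grown in mice for 3 weeks after transplantation. Of these libraries, 2 came from tumours injected directly into the brain, 3 from tumours seeded in the liver through the tail vein and 3 from tumours injected under the skin of the flank. All tumours derive from this single line, and the strain, age and sex of the host mice are not given in the sources used here. Living single cells were sorted before library preparation. Cells were divided by counts of unique molecular identifiers (UMIs, each standing for 1 captured RNA molecule). Host myeloid cells had less than 0.2% of their UMIs from eGFP and Mycl together and at least 1 UMI of Tyrobp, an adaptor protein of myeloid and natural killer cells, and tumour cells had at least 0.2% from eGFP and Mycl. This gave 1317 myeloid and 34719 tumour cells among 36797 kept cells, and 761 cells fell into neither class. No class II gene was used to make the classes.

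MHC class II molecules display peptides from endocytosed proteins to CD4+ T cells, and in the resting state their synthesis is largely a property of dendritic cells, B cells and activated macrophages. An alpha and a beta chain assemble with the invariant chain in the endoplasmic reticulum, cathepsins degrade the invariant chain in endosomes, and the H2-DM heterodimer exchanges the fragment left behind for peptide. The coactivator CIITA, which interferon-gamma induces in many cell types, switches the whole set on through the X and Y boxes of their promoters. Resting microglia, the resident macrophages of the brain, are known for low class II expression.

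In this set H2-Aa encodes the alpha chain of I-A, H2-Ab1 the beta chain of I-A and H2-Eb1 the beta chain of I-E. H2-DMa and H2-DMb1 encode the H2-DM chains, Cd74 the invariant chain and Ciita the coactivator. In GENCODE M21 (GRCm38, the same assembly as mm10) 5 of the 7 genes lie within 197 kb of chromosome 17. The I-A genes are H2-Ab1 (17:34257689-34269419, plus strand) and H2-Aa (17:34282744-34287823, minus strand), followed by H2-Eb1 (17:34305867-34316674, plus strand). H2-DMa (17:34119541-34139101) and H2-DMb1 (17:34153072-34160230) lie upstream of them, both on the plus strand. Ciita is on chromosome 16 (10480059-10528418) and Cd74 lies elsewhere, as given with its values. The matrices give whole genes, so exons cannot be told apart. H2-DMa overlaps Brd2 on the opposite strand, Ciita overlaps Dexi on the opposite strand, and H2-Eb1 and Cd74 overlap Gm20513 and Mir5107. The strand setting of the counting is not given in the sources used here. H2-DMb1 also has a near-identical neighbour, H2-DMb2, so the division of reads between these paralogs is uncertain.

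The 150 bases upstream of the start are shown for the alpha and a beta chain gene, since these genes vary together from cell to cell in the results below. RefSeq promoters of GRCm38.p6 were held for 4 of the 7 genes (H2-Aa, H2-Eb1, H2-DMa and H2-DMb1). Capitals mark matches to a Y box core (ATTGG, also printed on the reverse strand as CCAAT) or an X box core (ACNGATG), searched on both strands. The H2-Aa window is chr17:34287824-34287973 on the minus strand, and the H2-Eb1 window is chr17:34305717-34305866 on the plus strand.
H2-Aa: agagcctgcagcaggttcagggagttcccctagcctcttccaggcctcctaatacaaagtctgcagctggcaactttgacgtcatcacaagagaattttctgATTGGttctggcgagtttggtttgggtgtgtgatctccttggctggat
H2-Eb1: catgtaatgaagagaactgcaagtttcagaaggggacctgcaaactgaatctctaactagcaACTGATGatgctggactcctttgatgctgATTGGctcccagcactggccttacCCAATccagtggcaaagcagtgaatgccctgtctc

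H2-Eb1 held the X core at -88 to -82 and Y cores at -59 to -55 and, on the reverse strand, at -35 to -31, counted from the start. H2-DMb1 held the same 7 letters, ACTGATG, at -91 to -85 with a Y core at -61 to -57, counted from the RefSeq start, which lies downstream of the GENCODE start given above, so these letters fall inside the GENCODE gene. H2-Aa held a Y core at -48 to -44 and, outside the printed window, a reverse-strand X core at -232 to -226, and one of the H2-DMa promoters held a Y core at -198 to -194. Among 32851 RefSeq promoters, 8.31% held this X core, 33.8% the Y core and 2.77% both in the 250 bases upstream. A match is a description of letters and not of a bound site.

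The libraries held 3742 to 6707 deposited cells and 27140735 to 63049542 UMIs. Myeloid cells were unevenly spread: they made up 25.2% and 6.05% of kept cells in the brain tumours, 0.192%, 1.17% and 0.229% in the liver tumours and 2.87%, 0.0156% and 0.0413% in the subcutaneous tumours. In cells this is 850 and 267 (brain 1 and 2), 8, 51 and 11 (liver 1 to 3) and 127, 1 and 2 (subcutaneous 1 to 3), and the median depth ranged from 2181 to 5390 UMIs in the 5 libraries with at least 10 myeloid cells. Only those 5 entered comparisons of myeloid cells, so the subcutaneous site is represented there by a single library. Between any 2 libraries at most 56 cell barcodes were shared (1.13% of the smaller library). Nothing in the labels says that libraries of a site came from separate animals, so the p-values measure the spread between these samples.

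The class label was checked against markers in the 5 libraries. All 10 myeloid markers listed (Tyrobp, Fcer1g, Csf1r, Lyz2, Cd68, Spi1, Laptm5, Ptprc, Itgam, Aif1) had UMIs in every one of them, with a summed level of 9672 to 18791 CPM (UMIs of the gene per 1000000 UMIs of that cell class in the library). The T-cell genes Cd3e and Cd3g and the natural killer genes Ncr1, Eomes, Gzma and Prf1 were at 0 in all 5, while the natural killer genes Klre1 (0 to 6 UMIs), Klrb1c (0 to 1) and Nkg7 (0, but 5 UMIs in liver 3) were not. The summed T-cell list reached 11.9 to 54.5 CPM, the B-cell list 0 to 52.2 CPM and the natural killer list 0 to 136 CPM. The 10 microglial markers summed to 7978 and 6957 CPM in brain and to 366, 654 and 388 CPM in liver 2, liver 3 and subcutaneous 1.

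The class II genes were abundant in the myeloid cells of all 3 sites. H2-Ab1 stood at 5136 and 8056 CPM in brain 1 and 2, 9669 and 2970 CPM in liver 2 and 3, and 10155 CPM in subcutaneous 1. The other I-A chain, H2-Aa, stood at 6418 and 8910 CPM in brain, 10969 and 4823 CPM in liver and 11795 CPM in the subcutaneous library. H2-Eb1 stood at 3478 and 5240 CPM in brain, 6904 and 2398 CPM in liver and 7097 CPM in the subcutaneous library. Among the tested libraries the subcutaneous library was the highest for these chains and liver 3 the lowest. Both brain libraries lay between the 2 liver libraries. Only 11 cells stand behind liver 3, and the intervals given here cover counting error only.

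Cd74 (chromosome 18, 60803848-60812652, plus strand) followed the same order of libraries, with 13407 and 20328 CPM in brain, 24655 and 8991 CPM in liver and 27951 CPM in the subcutaneous library. H2-DMa, part of the peptide editor, was at 396 and 580 CPM in brain, 733 and 245 CPM in liver and 774 CPM in the subcutaneous library. Its partner H2-DMb1 was at 541 and 600 CPM in brain, 580 and 354 CPM in liver and 935 CPM in the subcutaneous library. Among the tested libraries the H2-DM genes were thus also highest in subcutaneous 1 and lowest in liver 3. Ciita, the coactivator, was at 50.8 and 120 CPM in brain, 110 and 27.2 CPM in liver and 72.7 CPM in the subcutaneous library, where brain 2 was the highest and the brain, liver and subcutaneous values overlapped. Its liver 3 value rests on 1 UMI. The 8 myeloid cells of liver 1 were too few for the comparison. They held 14994 CPM of H2-Aa, 8110 CPM of H2-Eb1, 980 CPM of H2-DMa and 30016 CPM of Cd74, each above all 5 tested libraries. Their 9416 CPM of H2-Ab1 lay below liver 2 and subcutaneous 1, and their 653 CPM of H2-DMb1 below subcutaneous 1. Ciita, at 81.6 CPM on 3 UMIs, lay below brain 2 and liver 2.

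**Figure D1:**
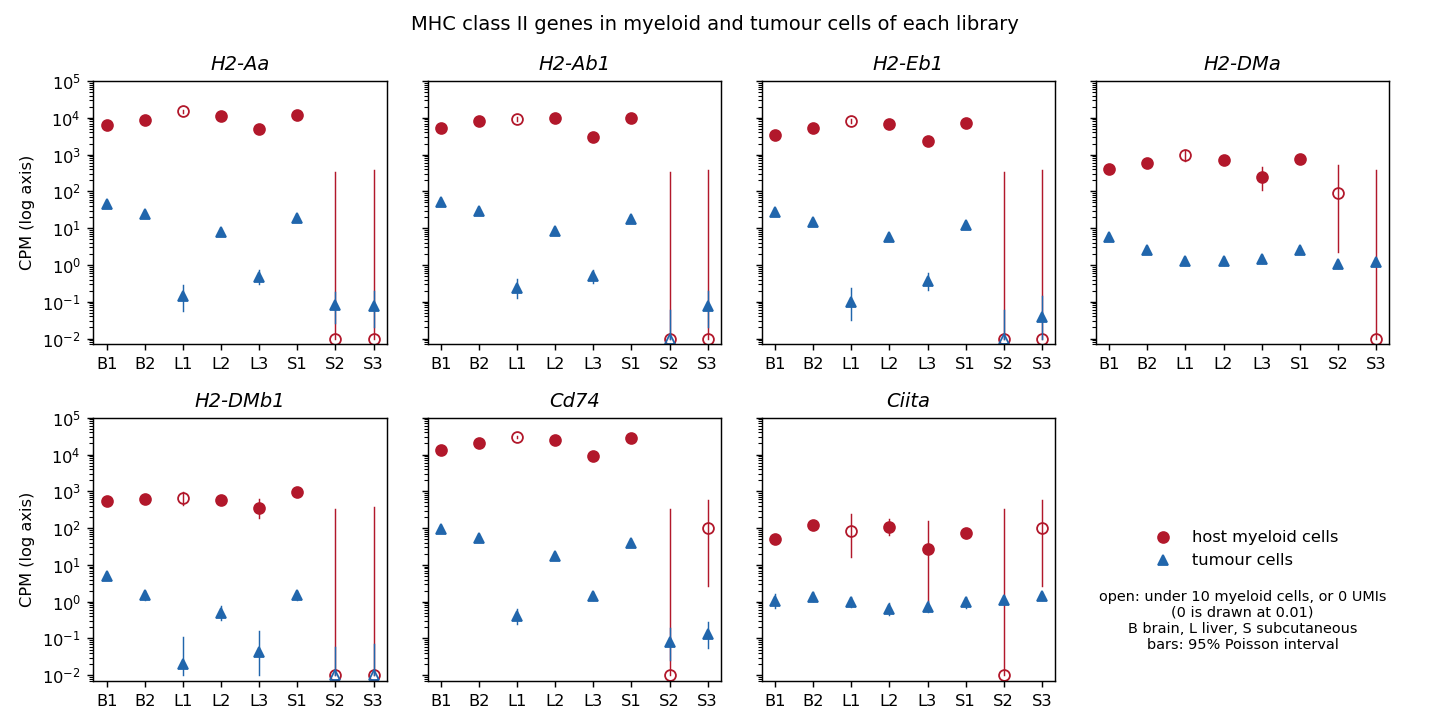
CPM (log axis) of each class II gene in host myeloid cells (red circles) and tumour cells (blue triangles) of the 2 brain (B), 3 liver (L) and 3 subcutaneous (S) libraries, with exact 95% Poisson intervals as bars. Open symbols stand for fewer than 10 myeloid cells or 0 UMIs, and 0 is drawn at 0.01. The myeloid level of H2-Ab1 ranged from 2970 to 10155 CPM in the libraries with at least 10 myeloid cells, whereas its tumour level ranged from 0 to 53.1 CPM.

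Between sites, none of the 7 genes was called in myeloid cells at an adjusted p under 0.05 (edgeR's quasi-likelihood test on UMI sums per library, Benjamini-Hochberg over 8154 genes). Brain against liver called 3.3% of all genes (2.13% higher and 1.17% lower in brain). Here the fitted log2 fold changes of the members ran from -0.05 (Ciita) to 0.35 (H2-DMb1), 0 had an unadjusted p under 0.05, DESeq2 called 0, and the 95% interval for H2-Ab1 reached from -0.88 to 1.18. The direction rests on liver 3: without it H2-Ab1 in brain was 0.51 lower than in liver on the log2 scale (fitted value -0.51), and without liver 2 it was 1.64 higher.

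Brain against subcutaneous called 8.25% of all genes (4.16% higher and 4.1% lower in brain) and 0 of the 7 members, with edgeR and with DESeq2. All but Ciita (log2 fold change 0.05, SE 0.36) had fitted values below 0, between -0.85 and -0.74, and 5 of the 7 had an unadjusted p under 0.05. Cd74 had the largest size, -0.85 (SE 0.40, edgeR adjusted p = 0.25), and its adjusted p ran from 0.141 to 1 over the alternatives. Liver against subcutaneous called 2.76% of all genes (0.773% higher and 1.99% lower in liver) and 0 members by either tool, with 4 of 7 at an unadjusted p under 0.05 by edgeR. H2-DMb1 came nearest, at -1.18 (SE 0.38, edgeR adjusted p = 0.0593, range over alternatives 0.0556 to 0.566). The subcutaneous site is a single library in these fits and is assumed to vary like the others. Fits of this size on simulated counts found 31.5%, 28% and 2.5% of planted 4-fold changes in brain against liver, brain against subcutaneous and liver against subcutaneous, so the absence of calls says little.

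The brain values depended on which myeloid cells were counted. Among myeloid cells without a UMI of the microglial genes Tmem119, P2ry12 or Sall1, H2-Ab1 stood at 10276 and 11748 CPM in brain, 10216 and 3084 CPM in liver and 9941 CPM in the subcutaneous library. Both brain values were then above the subcutaneous value. This step left out 61.4% and 47.9% of the brain myeloid cells but 5.51% of those of subcutaneous 1. The part of cell make-up in the site values was not tested. The fitted brain against subcutaneous log2 fold change of H2-Ab1 went from -0.74 to 0.11 (SE 0.90), that of H2-Aa from -0.74 to 0.11 and that of Cd74 from -0.85 to -0.02. Again 0 of the 7 members were called in that fit.

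Within the brain tumours the class II genes were unevenly divided between myeloid cells with and without a microglial UMI. In brain 1, 522 of 850 myeloid cells (61.4%) had such a UMI, and in brain 2, 128 of 267 (47.9%). H2-Ab1 was at 1402 CPM in the cells with and 10276 CPM in the cells without a microglial UMI of brain 1, and at 2927 against 11748 CPM in brain 2. This is a 7.33-fold and a 4.01-fold difference. Cd74 differed 6.43-fold and 3.77-fold, H2-DMa 3.45-fold and 2.87-fold, H2-DMb1 2.41-fold and 2.31-fold, and Ciita 6.20-fold and 5.62-fold, always higher without. All 7 genes were higher in the cells without a microglial UMI in both libraries. No test was made, since the 2 libraries give only 2 differences, and a cell without a UMI of these 3 genes can still be a microglial cell of low depth.

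**Figure D2:**
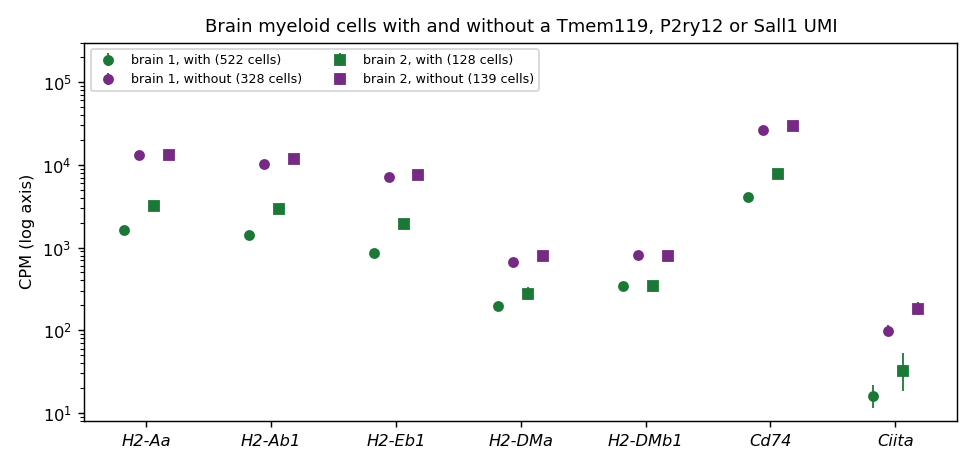
CPM (log axis) of each class II gene in brain myeloid cells with (green) and without (purple) a UMI of Tmem119, P2ry12 or Sall1, in brain 1 (circles) and brain 2 (squares), with exact 95% Poisson intervals as bars, mostly smaller than the symbols. Every gene lay higher without such a UMI, by 2.31-fold (H2-DMb1, brain 2) to 8.26-fold (H2-Eb1, brain 1).

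Class II transcripts were concentrated in a minority of myeloid cells in 4 of the 5 libraries. The UMIs of H2-Aa, H2-Ab1 and H2-Eb1 together made up at least 1% of the UMIs of 189 of 850 cells in brain 1 (22.2%), 106 of 267 in brain 2 (39.7%), 16 of 51 in liver 2 (31.4%), 2 of 11 in liver 3 (18.2%) and 72 of 127 in subcutaneous 1 (56.7%). The exact 95% intervals were 19.5% to 25.2%, 33.8% to 45.8%, 19.1% to 45.9%, 2.28% to 51.8% and 47.6% to 65.5%. These cells, called class II high below, held 96.6%, 98.6%, 99.7%, 92.8% and 97.3% of all chain UMIs of the myeloid cells. At the other end, 43.2%, 43.8%, 64.7%, 72.7% and 22.0% of myeloid cells held none. The limit of 1% was chosen after the values were seen and marks a range and not a cell type: 55, 23, 2, 2 and 24 cells lay between 0.5% and 2%.

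**Figure D3:**
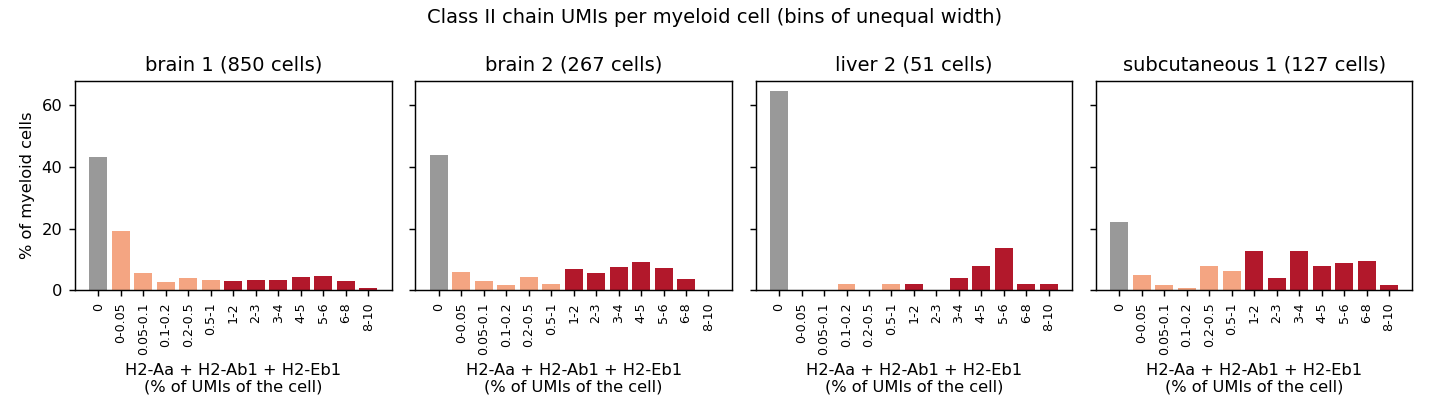
Share of myeloid cells (percent) by the percentage of a cell's UMIs that came from H2-Aa, H2-Ab1 and H2-Eb1, in the 4 libraries with at least 50 myeloid cells. Grey bars are cells with 0 UMIs, pale bars cells under 1% and red bars cells at or above 1%, and the bins differ in width. Between 22.2% (brain 1) and 56.7% (subcutaneous 1) of cells were at or above 1%.

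Depth differed with this division. Class II high cells had median depths of 7888, 5893, 5969 and 6961 UMIs in brain 1, brain 2, liver 2 and subcutaneous 1, against 3749, 2840, 1534 and 3598 UMIs in the other myeloid cells. In brain the microglial list stood at 836 and 494 CPM in class II high cells and 11561 and 14537 CPM in the rest. Accordingly 33 of the 522 brain 1 cells with a microglial UMI were class II high (6.32%, exact 95% interval 4.39% to 8.76%), against 156 of 328 without (47.6%, 42.0% to 53.1%). In brain 2 this was 21 of 128 (16.4%, 10.5% to 24.0%) against 85 of 139 (61.2%, 52.5% to 69.3%). The part of depth in these shares was not tested.

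The dendritic cell list was higher in class II high cells of all 4 libraries, at 1023 against 270 CPM in brain 1, 1235 against 345 CPM in brain 2, 1618 against 460 CPM in liver 2 and 1556 against 894 CPM in subcutaneous 1. Within it Cd209a, a lectin of monocyte-derived dendritic cells, stood at 184, 379, 662 and 589 CPM in class II high cells and at 4.85, 16.6, 0 and 8.77 CPM in the rest. Ccr7, a chemokine receptor of migrating dendritic cells, went the other way in liver 2 (0 against 251 CPM) and subcutaneous 1 (142 against 601 CPM). The class II low cells differed by site. In liver 2 they held the Kupffer cell genes Clec4f (4768 CPM) and Vsig4 (2788 CPM), both at 0 in class II high cells, and in subcutaneous 1 the neutrophil list summed to 5489 CPM and the fibroblast and pericyte list to 2863 CPM. B-cell, T-cell and natural killer lists stayed at or below 32.0 CPM in class II high cells of each library.

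To compare shares of cells across depths, each myeloid cell was thinned to 1000 UMIs. H2-Ab1 then had a UMI in 33.8% of 837 cells in brain 1, 48.5% of 260 in brain 2, 34.7% of 49 in liver 2, 18.2% of 11 in liver 3 and 66.7% of 126 in subcutaneous 1. Without thinning the shares were 45.8%, 51.7%, 35.3%, 27.3% and 70.9%. The same thinning gave 3.57% and 0.937% in the tumour cells of brain 1 and 2, 0.383% and 0.0212% in those of liver 2 and 3, and 0.871% in those of subcutaneous 1. Unthinned, these tumour cells had median depths of 7972 to 10542 UMIs. They include cells with a Tyrobp UMI, and the source of their class II UMIs was not tested. The mean of the brain libraries exceeded that of the liver libraries by 14.7 percentage points, which a two-sided exact permutation test over 2 against 2 libraries did not separate from their spread (p = 0.667, the smallest possible being 0.333). Among cells without a microglial UMI the difference was 38.7 points (exact permutation p = 0.333, the smallest possible), from 57.8% and 74.4% in brain against 34.9% and 20% in liver. Leaving out cells with such a UMI removed 61.4% and 47.9% of myeloid cells in brain 1 and 2. In liver 2 and 3 it removed 11.8% and 9.09%. Most of the removed brain cells were class II low. The filter thus acted mainly on brain, and no such filter was set for resident macrophages of liver.

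Across single myeloid cells the members varied together. Over 850, 267 and 127 cells of the 3 libraries with at least 100, Pearson's r of H2-Ab1 was 0.93 to 0.97 with H2-Aa, 0.93 to 0.96 with H2-Eb1 and 0.90 to 0.94 with Cd74. It was 0.73 to 0.78 with H2-DMa, 0.62 to 0.84 with H2-DMb1 and 0.47 to 0.66 with Ciita. The lowest r of any pair was 0.30, between H2-DMa and Ciita in subcutaneous 1. These are descriptions across cells that share a library and depth, on log-scaled counts.

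The 8 genes outside the set whose lowest r with H2-Ab1 over the 3 libraries was highest, among 5775 genes ranked, were Ms4a4c, Napsa, Klrb1b, Crip1, Gm2a, Plbd1, Klrk1 and Ccr2. Ms4a4c had r between 0.51 and 0.55, and Napsa, an aspartic protease, between 0.50 and 0.68. Plbd1 reached 0.72 and 0.74 in the brain libraries and 0.42 in subcutaneous 1. Ccr2, the chemokine receptor of blood-derived monocytes, had r of 0.41 to 0.50. The likeness of Ciita (lowest r 0.47) fell below that of Ms4a4c (0.51) and Napsa (0.50). Klrb1b and Klrk1 are lectin-like receptors best known from natural killer cells. Of the 7 listed natural killer markers Ncr1, Eomes, Gzma, Prf1 and Nkg7 were at 0 in these 3 libraries, and Klre1 (6, 1 and 3 UMIs) and Klrb1c (1, 0 and 0 UMIs) were not. At the negative end stood Timp2 (r -0.44 to -0.37) and the tetraspanin Cd63 (r -0.47 to -0.29).

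A few other genes of the class II pathway were called between sites in myeloid cells. Of 26 tested genes of a 30-gene pathway list, brain myeloid cells were higher than liver for 2 and lower for 0, beside 2.13% and 1.17% of all genes, with a list median log2 fold change of 0.15 beside 0.14 over all genes. These were the cathepsins Ctss, the protease that makes the final invariant chain cut (log2 fold change 1.36, SE 0.31, edgeR adjusted p = 0.00076), and Ctsd (2.34, SE 0.32, edgeR adjusted p = 8.74e-11). Ctsd stood at 7564 and 4084 CPM in brain, 1227 and 1499 CPM in liver and 627 CPM in the subcutaneous library, with both brain libraries above all others. Against the single subcutaneous library, which has no replicate and is assumed to vary like the others, 5 were higher and 3 lower, beside 4.16% and 4.1% of all genes, with a median of 0.04 beside 0.03. These values compare brain with that library and cannot be told apart from what is particular to it. Higher were Ctsd (3.11), Ctss (1.15), Ctsl (1.55), the asparaginyl endopeptidase Lgmn (1.34) and H2-Oa (1.71), a chain of the modulator that restrains H2-DM. Lower were the costimulatory receptor Cd40 (-1.35), the maturation marker Cd83 (-1.43) and the interferon-induced factor Irf1 (-1.12). Cd83 was also lower in liver than in the subcutaneous library (-1.52), the only 1 of 26 called there, beside 1.99% of all genes.

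Several of these values were smaller among cells without a microglial UMI. Without cells holding a microglial UMI, 0 of 27 pathway genes were called between brain and liver, and 2 higher and 1 lower between brain and subcutaneous. These were Ctsd (1.27), H2-Oa (2.45) and Cd83 (-1.47). Those not called there had log2 fold changes against the subcutaneous library of 0.12 (Ctss), 0.30 (Ctsl), 0.01 (Lgmn), -0.52 (Cd40) and -0.95 (Irf1), so Irf1 was nearly as far from 0 as before. Against liver Ctss was 0.33 and Ctsd 0.72. The same fit holds fewer cells and called 92 rather than 269 genes overall between brain and liver, at 7713 genes tested. Of the 12 tested interferon-gamma induced genes, brain myeloid cells were higher than liver for Cxcl10 alone (3.83, SE 0.93, edgeR adjusted p = 0.00225, resting on 1 and 0 UMIs in the liver libraries), at a list median of 0.45. Of all genes 2.13% were called higher in that contrast. Against the subcutaneous library Gbp2 was higher (1.22) and Irf1 lower (-1.12), at a list median of -0.72.

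Tumour cells carried these genes at a small fraction of the myeloid level. Cd74 stood at 92.5 and 54.4 CPM in the tumour cells of brain 1 and 2, 0.405, 17.6 and 1.47 CPM in liver 1 to 3 and 39.2, 0.0806 and 0.135 CPM in subcutaneous 1 to 3. H2-Ab1 stood at 53.1 and 29.6 CPM in brain, 0.243, 8.55 and 0.496 CPM in liver and 18.1, 0 and 0.0771 CPM in the subcutaneous libraries. H2-Aa stood at 46.4 and 24.7 CPM in brain, 0.142, 7.92 and 0.475 CPM in liver and 18.7, 0.0806 and 0.0771 CPM in the subcutaneous libraries. For these genes the order was brain 1, brain 2, subcutaneous 1 and liver 2, and the other 4 libraries stood near 0. The share of myeloid cells fell in the same order over these libraries. None of these genes was called between sites in tumour cells. H2-Eb1 stood at 28.2 and 14.9 CPM in brain, 0.101, 5.92 and 0.367 CPM in liver and 12.3, 0 and 0.0385 CPM in the subcutaneous libraries. H2-DMb1 stood at 5.07 and 1.5 CPM in brain, 0.0202, 0.502 and 0.0432 CPM in liver and 1.49, 0 and 0 CPM in the subcutaneous libraries. For H2-DMb1 brain 2 and subcutaneous 1 were nearly level.

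As a share of the myeloid level of the same library, the tumour cell level of H2-Ab1 was 1.03% and 0.368% in brain, 0.0884% and 0.0167% in liver 2 and 3 and 0.179% in subcutaneous 1. In a fit over the 5 libraries with cell class and library as terms, all 7 genes were higher in myeloid than in tumour cells (13701 genes tested, of which 26.8% were called higher, 37.6% lower and 64.3% in either direction). The log2 fold changes were 9.86 for Cd74 (SE 1.11, edgeR adjusted p = 0.00171), 9.83 for H2-Aa, 9.62 for H2-Eb1, 9.46 for H2-Ab1, 9.38 for H2-DMb1, 8.02 for H2-DMa and 6.64 for Ciita (SE 0.33, edgeR adjusted p = 1.4e-09). All genes together had a median of -0.32, which moved to -0.46 under RLE scaling without changing these calls. Of the 30 pathway genes 24 were higher in myeloid cells and 4 lower (Rfxap, Nfyb, Nfyc and March8), with a median of 5.98.

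The tumour cell level followed the number of myeloid cells in the library. In falling order, the tumour cell level of Cd74, the summed myeloid marker list in tumour cells (261, 43.5, 38.8, 11.2, 5.31, 3.32, 2.08 and 1.81 CPM) and the share of myeloid cells all ranked the libraries as brain 1, brain 2, subcutaneous 1, liver 2, liver 3, liver 1, subcutaneous 3 and subcutaneous 2. Tyrobp, which no tumour cell rule used, had a UMI in 26.9% of tumour cells in brain 1, 4.33% in brain 2 and 85 of 4150 in subcutaneous 1. Whether the class II UMIs of tumour cells came from those cells, from free RNA or from myeloid cells in the same droplet was not tested, and doublets were not removed.

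In brain 2, liver 2, liver 3 and subcutaneous 1 a few tumour-class cells held most of the chain UMIs, and in brain 1 they held fewer than the remaining cells. Cells with at least 10 UMIs of the 3 chains numbered 7 in brain 1, 10 in brain 2, 0 in liver 1, 4 in liver 2, 1 in liver 3, 5 in subcutaneous 1 and 0 in subcutaneous 2 and 3. All but 1 (in brain 2) had a Tyrobp UMI. They held 40.6%, 73.3%, 84.3%, 79.0% and 67.2% of the chain UMIs of tumour cells in brain 1, brain 2, liver 2, liver 3 and subcutaneous 1. In liver 1, subcutaneous 2 and subcutaneous 3, no tumour cell held more than 1 chain UMI, among 4114, 6276 and 4792 cells.

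Tumour cells without a Tyrobp UMI had lower levels of Cd74 and H2-Ab1 than all tumour cells in the 5 libraries with at least 10 myeloid cells, and nearly the same levels in the other 3. Their Cd74 level was 46.1 and 11.1 CPM in brain, 0.406, 2.43 and 0.13 CPM in liver and 9.71, 0.0806 and 0.135 CPM in the subcutaneous libraries. Their H2-Ab1 level was 34.5 and 9.04 CPM in brain, 0.244, 1.76 and 0.13 CPM in liver and 7.79, 0 and 0.0772 CPM in the subcutaneous libraries. Here brain 2 and subcutaneous 1 were close, and brain 1 stood apart. Tumour cells with a Tyrobp UMI held 2.58 times the H2-Ab1 level of those without in brain 1, 43.3 times in brain 2, 341 times in liver 2 and 55.5 times in subcutaneous 1. The 0 UMIs of H2-Ab1 in subcutaneous 2 allow up to 0.0484 CPM, taking 3 counts of the library's tumour UMIs as the limit.

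**Figure D4:**
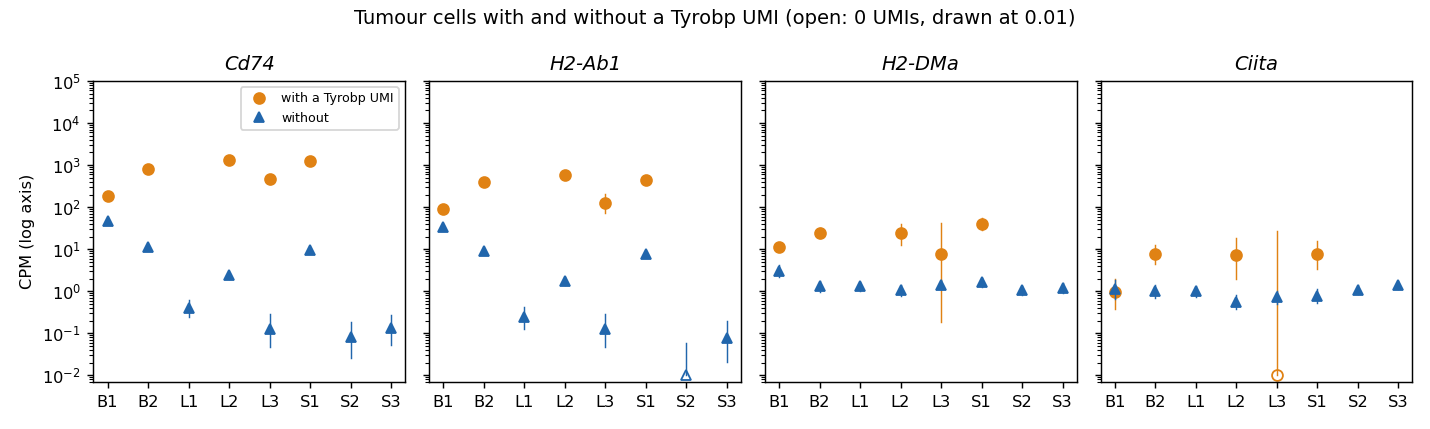
CPM (log axis) of Cd74, H2-Ab1, H2-DMa and Ciita in tumour cells with (orange circles) and without (blue triangles) a Tyrobp UMI, by library (B brain, L liver, S subcutaneous), with exact 95% Poisson intervals. Groups of fewer than 10 cells are left out and 0 is drawn open at 0.01. Cd74 and H2-Ab1 spanned orders of magnitude between libraries, whereas Ciita without Tyrobp stayed between 0.571 and 1.41 CPM.

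Ciita and H2-DMa behaved differently from the other members in tumour cells. Ciita stood at 1.06 and 1.37 CPM in brain, 0.992, 0.648 and 0.734 CPM in liver and 0.959, 1.10 and 1.41 CPM in the subcutaneous libraries, so the sites overlapped. Subcutaneous 3, with 2 myeloid cells, had the highest level. H2-DMa stood at 5.81 and 2.58 CPM in brain, 1.32, 1.32 and 1.47 CPM in liver and 2.59, 1.06 and 1.19 CPM in the subcutaneous libraries. It too had a level near 1 CPM in libraries almost free of myeloid cells. The genes on their opposite strands were abundant in tumour cells, Brd2 at 112 to 165 CPM and Dexi at 26.3 to 42.5 CPM, and their part in these counts was not tested.

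Between sites, 1 of the 7 members was called in tumour cells, H2-DMa, higher in brain than in liver (log2 fold change 1.49, SE 0.43, edgeR adjusted p = 0.0382). Of all 13931 genes tested, 21.8% were called in that contrast, 13.2% as higher and 8.56% as lower in brain. The call was lost among tumour cells without a Tyrobp UMI (0.62, edgeR adjusted p = 0.267), where H2-DMa stood at 3.07 and 1.31 CPM in brain against 1.32, 1.06 and 1.45 CPM in liver. It was also lost without brain 1 (0.83) or without any 1 of the liver libraries, and its adjusted p ran from 0.00424 to 0.304 over the alternatives.

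The other members had larger fitted values but wider errors. Brain against liver gave 3.97 for H2-DMb1 (SE 1.86, edgeR adjusted p = 0.17), 3.61 for H2-Ab1 (SE 2.30), 3.51 for H2-Aa, 3.37 for Cd74, 3.21 for H2-Eb1 and 0.51 for Ciita. H2-DMb1 was called among tumour cells without a Tyrobp UMI (5.21, SE 1.38, edgeR adjusted p = 0.0261, range over alternatives 0.0261 to 0.439). It had 30 and 18 UMIs there in brain, 1, 2 and 1 in liver and 12, 0 and 0 in the subcutaneous libraries. Those brain values are 2.09 and 0.492 CPM. Outside brain only subcutaneous 1 held more than 2 UMIs. H2-DMb1 thus passed the filter on low counts through brain, and the call is no support for a site difference.

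Brain against subcutaneous called 15.1% of all genes (8.94% higher and 6.13% lower in brain) and 0 members by edgeR, with 1 at an unadjusted p under 0.05 (H2-DMa, 1.37, SE 0.43, edgeR adjusted p = 0.0619, range over alternatives 0.0024 to 0.428), and DESeq2 called that gene. Without subcutaneous 1, the library with 127 myeloid cells, H2-DMa (1.86) and H2-DMb1 were called; H2-DMb1 had 0 UMIs in both remaining subcutaneous libraries, so its fitted value depends on the prior count and is not given. Liver against subcutaneous called 2.83% of all genes (0.933% higher and 1.9% lower in liver) and 0 members by either tool, with 0 at an unadjusted p under 0.05. Its fitted value for Cd74 was -0.87 with a 95% interval of -6.12 to 4.38, and became 6.03 without subcutaneous 1.

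Several genes of the interferon-gamma induced list were higher in the tumour cells of brain than in those of liver. The signal behind these values was not tested. Irgm1, an immunity-related GTPase, stood at 9.36 and 7.10 CPM in brain, 0.385, 0.502 and 0.302 CPM in liver and 1.01, 0.371 and 0.405 CPM in the subcutaneous libraries. Gbp3, a guanylate-binding protein, stood at 5.44 and 7.70 CPM in brain, 0, 0.0418 and 0.0863 CPM in liver and 0.216, 0.0322 and 0.0578 CPM in the subcutaneous libraries. For both genes brain did not overlap the other sites, and the share of all genes that do likewise is not given here. The log2 fold change of Irgm1 against liver was 4.25 (SE 0.43, edgeR adjusted p = 0.000844) and against subcutaneous 3.81, and that of the chemokine Cxcl10 against liver was 3.93. The transcription factor Irf1 was higher in brain than in liver (1.04), but had -0.30 against subcutaneous (edgeR adjusted p = 0.423). Of the 16 listed genes 10 were tested and called higher than in liver (8 higher than in subcutaneous), and the other 6 were too low to test. Of all genes 13.2% were called higher in brain than in liver and 8.94% higher than in subcutaneous. Of these 10, Gbp2, Gbp3 and Ifi47 had fewer than 10 UMIs in every liver and subcutaneous library and so passed the filter on low counts through brain alone. Igtp (37 UMIs) and Gbp7 (11 UMIs) reached 10 UMIs outside brain in subcutaneous 1 alone. A single library did not suffice for the filter, so these too passed through brain. The count of 10 is therefore no measure of the list. In tumour cells without a Tyrobp UMI Irgm1 was 4.33 higher than in liver on the log2 scale. In that same fit the fitted value of Ciita against liver was 0.35 (SE 0.37, edgeR adjusted p = 0.531, range over alternatives 0.126 to 0.671), with 1.12 and 1.01 CPM in brain and 0.995, 0.571 and 0.736 CPM in liver.

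Of the 24 tested pathway genes, 11 were higher and 1 lower in brain than in liver tumour cells, beside 13.2% and 8.56% of all genes. Against the subcutaneous libraries 7 were higher and 0 lower, beside 8.94% and 6.13% of all genes. Cd86, H2-DMb2 and H2-Oa had fewer than 10 UMIs in every liver and subcutaneous library and passed the filter through brain alone. All 3 are among the 11 higher than in liver, and 2 of them are among the 7 higher than in subcutaneous. Among the pathway genes higher in both contrasts were Nfyc (1.70 and 1.32), a subunit of the complex that binds the Y box, and the cathepsin Ctsb (1.27 and 1.25). Lgmn (1.12 and 0.82) and the transcription factor Irf8 were also higher in both. Without Tyrobp-positive tumour cells 7 of 20 were higher and 1 lower than in liver, with Nfyc (1.75) and Ctsb (0.88) among the higher, while H2-Oa and Cd86 were too low to test. That fit called 2991 of 13775 genes in either direction. The list median log2 fold change against liver was 0.28 there and 1.14 among all tumour cells.

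The proportion of the I-A chain transcripts differed between cell classes. In myeloid cells H2-Ab1 made up 44.4%, 47.5%, 46.9% and 46.3% of the UMIs of H2-Aa and H2-Ab1 in brain 1, brain 2, liver 2 and subcutaneous 1. In tumour cells without a Tyrobp UMI it made up 57.3% (exact 95% interval 53.9% to 60.6%), 59.4% (55.2% to 63.5%), 63.8% (55.0% to 72.1%) and 60.6% (56.3% to 64.8%). The tumour interval lay above the myeloid one in each of the 4 libraries. Tumour cells with a Tyrobp UMI stood between, at 50.7%, 52.7% and 49.5%, in brain 1, brain 2 and liver 2, but at 43.3% in subcutaneous 1. Cells of neither class in brain had 28.2% and 35.6%, below the myeloid values. The intervals cover counting error only, and the 4 libraries were not compared by a test, since this difference was found by inspection.

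**Figure D5:**
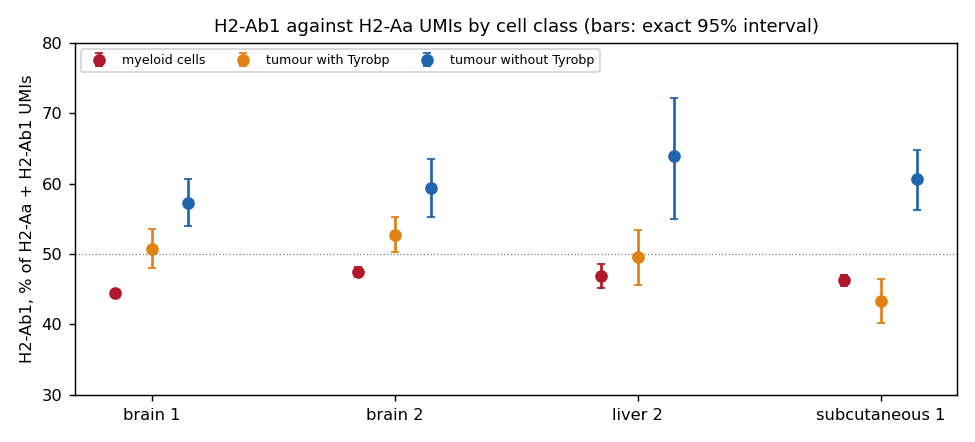
H2-Ab1 as a percentage of the UMIs of H2-Aa and H2-Ab1 in myeloid cells (red), tumour cells with a Tyrobp UMI (orange) and tumour cells without (blue), in the 4 libraries with at least 50 myeloid cells, with exact 95% binomial intervals. The dotted line marks 50%. Tumour cells without Tyrobp lay between 57.3% and 63.8%, above the myeloid cells of the same library at 44.4% to 47.5%.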

How the data were processed

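Each library was deposited as a matrix of UMI counts (10x Genomics 3' chemistry). Per the submitters' processing notes Cell Ranger and STAR were used with mm10, with versions not given in the sources used here, and per the file headers the matrices carry software version 3.0.0. Cells under 500 genes or over 10% mitochondrial UMIs were dropped (1663 of 38460). No doublet caller was run. Counts were summed per library and cell class and scaled to CPM (counts per 1000000). Sites were compared with edgeR 4.0.16 in R 4.3.3 (TMM, filterByExpr, robust quasi-likelihood F test, Benjamini-Hochberg over all genes tested, called under 0.05), with 1 mean per site; myeloid fits used libraries with at least 10 myeloid cells, which gave 2 liver libraries where 3 had been foreseen. Standard errors (SE) were taken from the F statistic as |log2 fold change|/√F. Intervals are exact (Poisson or Clopper-Pearson, 95%). Thinning drew 1000 UMIs per cell without replacement. Correlations used log counts per 10000 UMIs of a cell and genes with a UMI in at least 5% of cells.

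Replicate libraries differed beyond sampling noise (chi-square per gene 6.37 to 91.5). Simulated counts had a fixed spread and 200 genes changed 4-fold, drawn at random above a low count limit. On these the tumour brain against liver step recovered 87.5% with 6 false calls of 13828 genes. The myeloid steps recovered 31.5% (brain against liver) and 28% (brain against subcutaneous), with 1 and 3 false calls of 8015 genes, and 2.5% (liver against subcutaneous), with 0 of 7987. Named genes are the 7 members, every pathway gene called between sites in myeloid cells, and the 8 nearest genes; genes named beyond this were chosen after their values were seen. H2-Ea, H2-Ea-ps, Ifi30 and Marchf1 of the 34 pathway genes listed had no entry under these symbols in the matrices and could not be analysed. The members, lists and tests were chosen with earlier results of these data known. Alternatives were DESeq2 1.42.0, RLE scaling, no filter, other cell definitions, a replicate block and leaving out each library.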

Additional observations from a re-analysis of the deposited data

How the results depend on the processing

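Class II genes were called in myeloid over tumour cells (7 of 7) under all 15 alternatives run, and 0 of 7 were called between sites in myeloid cells under all alternatives run. Of the comparison-level values (the numbers of members called and the H2-Ab1 share difference), 104 stayed the same, 9 moved and 1 reversed. For the numbers called, neither direction nor which member was called entered this label. Of the values of single members, 663 kept sign and call, 67 changed sign, 6 gained a call and 6 lost it. In tumour cells the count of members called between brain and liver (1 in the report) was 0 with a boundary of 0.5% eGFP and Mycl UMIs and 0 to 2 when a library was left out. Between brain and subcutaneous (0 in the report) it was 1 with DESeq2, 1 with a boundary of 0.1%, and 0 to 2 when a library was left out. The brain minus liver difference of the H2-Ab1 share became -7.72 points when cells were thinned to 2000 UMIs, where liver 3 had too few cells and dropped out, and ran from 6.44 to 23.0 points when a library was left out.

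Values that were not called and changed sign are given as log2 fold changes. In tumour cells, liver against subcutaneous, the replicate block gave 0.24 (H2-Aa), 0.35 (H2-Ab1), 0.47 (H2-Eb1), 0.0011 (H2-DMa), 0.047 (H2-DMb1) and 0.61 (Cd74). H2-DMa was 0.018 at the 0.5% boundary and 0.088 in cells without Tyrobp. Ciita, brain against subcutaneous, was -0.18 at that boundary and -0.050 in those cells. Leaving out a library gave -4.21 to 5.24 (H2-Aa), -3.88 to 6.47 (H2-Ab1), -3.98 to 6.82 (H2-Eb1), -0.34 to 0.39 (H2-DMa), -3.68 to 6.18 (H2-DMb1, the upper value against 0 UMIs in subcutaneous 2 and 3) and -3.68 to 6.03 (Cd74) for liver against subcutaneous, and -0.13 to 0.26 for Ciita, brain against subcutaneous.

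In myeloid cells, brain against liver, the boundary of 0.1% gave -0.68 (H2-Aa), -0.71 (H2-Ab1), -0.83 (H2-Eb1), -0.15 (H2-DMb1) and -0.71 (Cd74). The boundary of 0.5% gave -0.18, -0.0056 and -0.22 for the 3 chains and -0.14 for Cd74. Libraries with at least 20 myeloid cells gave -0.47, -0.51 and -0.62 for the 3 chains and -0.50 for Cd74; libraries with at least 5, an alternative chosen after the data were seen, gave -0.12 (H2-Aa), -0.14 (H2-Eb1), -0.045 (Cd74) and 0.058 (Ciita). H2-Eb1 was -0.012 with DESeq2, -0.033 with RLE scaling, -0.030 with all deposited cells and -0.065 with at least 2 Tyrobp UMIs. With DESeq2 H2-DMa was 0.033 and Ciita 0.17, and without a filter 0.036 and 0.044. Without cells holding a microglial UMI, also chosen after the data were seen, H2-DMa was 0.51 and Ciita 0.66, and against subcutaneous H2-Aa was 0.11, H2-Ab1 0.11 and H2-Eb1 0.049. Against subcutaneous Ciita in brain was -0.013 with all deposited cells, and in liver -0.063 with DESeq2 and -0.0092 with at least 5 cells, and H2-Eb1 in liver was 0.017 at the 0.1% boundary. Leaving out a library gave -0.47 to 1.15 (H2-Aa), -0.51 to 1.64 (H2-Ab1), -0.62 to 1.35 (H2-Eb1), -0.55 to 1.47 (H2-DMa), -0.50 to 1.39 (Cd74) and -0.63 to 2.06 (Ciita) for brain against liver. For Ciita it gave -0.59 to 0.59 (brain) and -2.02 to 0.45 (liver) against subcutaneous. The causes were not tested.

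With the replicate number as a block, 1, 0 and 0 members were called in tumour cells, and 2482, 1378 and 229 genes overall against 3032, 2099 and 394 without. Correlations of the deviations of same-numbered libraries ran from -0.21 to 0.37, so the numbers were not taken as pairs. The block could not be fitted in myeloid cells, where no residual degrees of freedom remained. Depth limits the myeloid comparisons of liver and subcutaneous tissue, where 11 to 127 cells stand behind each library. The simulated myeloid steps recovered 2.5% to 31.5% of 4-fold changes in genes drawn at random, which are not rates for the members.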
